A study of Homo sapiens with 16 samples.

Results

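Island coverage and narrow peaks of H3K27me3 and H3K4me1 were followed at 9 receptor genes of neuroblastoma biology in BE2C, a MYCN-amplified line derived from a human neuroblastoma. The genes were ALK, RET, NTRK2, NTRK3, NGFR, KIT, ERBB3, PDGFRA and IGF1R and were chosen by their role as receptors, and all 9 were found among the 20136 protein-coding genes of the annotation. Each locus was the gene body with 10 kb on either side. Marks were mapped by CUT&Tag, in which an antibody directs a transposase to cut and tag the DNA beside a modified histone. In the knockdown experiment, cells that received the KDM6B siRNA siKDM6B33 for 72 h were compared with cells that received the control siRNA siCtrl. In the compound experiment, cells given 2.5 µM GSK-J4 for 72 h were compared with cells given 0.1% DMSO. Each of the 8 groups (4 treatments for each of the 2 marks) had 2 replicates, 16 libraries in all. All libraries came from 1 cell line, and the knockdown was represented by 1 siRNA.

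Most of these receptors are tyrosine kinases that carry growth and survival signals into cells of the neural crest lineage. ALK is the kinase most often mutated in neuroblastoma, RET receives GDNF family ligands through GFRA co-receptors, and IGF1R receives insulin-like growth factors. NTRK2 (TrkB) and NTRK3 (TrkC) bind the neurotrophins BDNF and NT-3. NGFR (p75) binds all neurotrophins and has no kinase domain. KIT is the receptor for stem cell factor, ERBB3 for neuregulins and PDGFRA for platelet-derived growth factors. H3K27me3 is the mark laid down by Polycomb complexes over repressed genes, and KDM6B removes methyl groups from H3K27. GSK-J4 is converted inside cells to GSK-J1. The study found that GSK-J1 acted on both KDM6A and KDM6B in vitro, with some effect on KDM5A. H3K4me1 marks enhancers and the flanks of promoters.

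The loci differed widely in size. NGFR spanned 39.7 kb with its flanks (gene body chr17:47572655-47592370), ERBB3 46.7 kb (chr12:56470583-56497289), RET 73.3 kb (chr10:43572512-43625799) and PDGFRA 89.0 kb (chr4:55095447-55164412). KIT spanned 104 kb (chr4:55523434-55606949), IGF1R 336 kb (chr15:99191768-99507759), NTRK3 417 kb (chr15:88402982-88800022), NTRK2 447 kb (chr9:87283290-87710666) and ALK 749 kb (chr2:29415640-30144452). Positions are in hg19. A mark confined to a start therefore covered a small share of NTRK2, NTRK3 and ALK and a larger share of NGFR or ERBB3. The flanks or bodies of 5 loci also held part of another coding gene, namely CLIP4 at ALK, CSGALNACT2 at RET, PA2G4 and a coding gene without a symbol at ERBB3, PGPEP1L at IGF1R and a read-through gene at PDGFRA.

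The starts of NTRK2, NTRK3 and KIT are shown first because they carried H3K27me3 in every library of that mark and H3K4me1 islands in both siKDM6B33 libraries but in neither siCtrl library. Each line gives the first 120 bases upstream of the start without an annotated exon, read 5′ to 3′ on the gene's strand, with CpG dinucleotides in capitals. The stretches lie at chr9:87284374-87284493 (plus strand), chr15:88800031-88800150 (minus strand) and chr4:55523934-55524053 (plus strand) of GRCh37.
NTRK2: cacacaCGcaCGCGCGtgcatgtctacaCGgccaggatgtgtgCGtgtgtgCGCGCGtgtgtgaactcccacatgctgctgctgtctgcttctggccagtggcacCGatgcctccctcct
NTRK3: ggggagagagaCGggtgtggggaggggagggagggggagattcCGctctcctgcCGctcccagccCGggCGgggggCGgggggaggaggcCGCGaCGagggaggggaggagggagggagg
KIT: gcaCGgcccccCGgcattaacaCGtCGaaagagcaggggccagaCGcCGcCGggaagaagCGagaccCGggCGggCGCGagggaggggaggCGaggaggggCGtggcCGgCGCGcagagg

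They held 10, 9 and 17 CpG dinucleotides, with a GC content of 63.3%, 77.5% and 75.8%. Over the 2000 bases centred on the start, the observed over expected CpG ratio was 0.803 at NTRK2, 0.785 at NTRK3 and 0.819 at KIT, against a median of 0.635 over all 20136 starts. IGF1R had the highest ratio of the 9 genes at 0.989, and ERBB3 the lowest at 0.578. The E-box CACGTG, which reads the same on both strands, was present in 29.2% of all start windows and in 0 of the 9 receptor windows. The core CTCF motif, searched on both strands, was present in 1.45% of all windows and in 0 of 9.

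A further pair of stretches is shown because H3K4me1 islands over them were called in both siCtrl libraries and in neither siKDM6B33 library. Each is centred on the strongest narrow peak of siCtrl replicate 1 in the region, in intron 4 of ALK (chr2:29621096-29621215, minus strand) and intron 3 of NGFR (chr17:47585979-47586098, plus strand), again with CpG in capitals.
ALK intron 4: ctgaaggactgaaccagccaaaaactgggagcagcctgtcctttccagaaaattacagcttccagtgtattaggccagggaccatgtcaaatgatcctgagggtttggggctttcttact
NGFR intron 3: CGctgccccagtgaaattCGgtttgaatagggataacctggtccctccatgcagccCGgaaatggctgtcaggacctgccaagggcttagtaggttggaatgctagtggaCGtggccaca

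These intronic stretches held 0 and 4 CpG dinucleotides at 48.3% and 55.8% GC. No annotated exon overlapped either.

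Islands numbered 7175 to 16676 in the H3K27me3 libraries and 17765 to 24917 in the H3K4me1 libraries. The Jaccard index of the covered bases of 2 replicates ranged from 0.518 in the GSK-J4 H3K27me3 pair to 0.727 in the siCtrl H3K4me1 pair. In the GSK-J4 pair, replicate 1 stood apart, with 16676 islands of 3000 bp median width against 8006 of 7400 bp in replicate 2. Genome background, the mean fragment pileup per base recovered from the narrow peak lists, was higher in both siKDM6B33 libraries than in both siCtrl libraries for H3K27me3 (0.0529 and 0.0539 against 0.0395 and 0.0401) and for H3K4me1 (0.105 and 0.107 against 0.0849 and 0.0902). It was also higher with GSK-J4 for H3K27me3 (0.0507 and 0.0371 against 0.0298 and 0.0338). The covered length differed between libraries, so each coverage comparison was repeated with all lists of a mark and experiment cut to the covered length of the smallest. The H3K27me3 lists of the compound experiment stood apart from those of the knockdown experiment in lying largely over H3K4me1, with 53.5% (DMSO) and 62.5% (GSK-J4) of the H3K27me3 length called in both replicates under H3K4me1, against 9.17% (siCtrl) and 12% (siKDM6B33). The part of this overlap in the H3K27me3 differences found with GSK-J4 was not tested. HAND2, GATA3 and ISL1, transcription factors of sympathetic neuroblasts, carried H3K4me1 islands in all 8 libraries of that mark. No H3K27me3 island was called at these genes with siCtrl or siKDM6B33. At HAND2 that mark covered 15.0% and 20.6% of the locus with DMSO and 21.4% and 23.8% with GSK-J4. GATA3 had 17.7% and 0% against 15.7% and 0%, and ISL1 had 0% in both DMSO libraries against 25.6% and 0%. At KDM6B itself, whose transcript these chromatin data do not measure, H3K4me1 covered 50.8% and 52.7% of the locus in siCtrl and 69.5% and 67.5% in siKDM6B33.

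With 2 libraries against 2, the two-sided exact permutation test cannot give a p below 0.33, so no comparison could pass a threshold of 0.05 by this test. A value is called higher or lower where both treated libraries lay on the same side of both control libraries, and each such difference had this smallest p. The p-values measure only the spread between these libraries. The study describes the 2 replicates as biological, while the labels do not say whether they were separate cultures.

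In siCtrl cells, H3K4me1 ranked the receptors from RET to KIT and NTRK2. Islands covered 61.5% ± 0.772 (SD, n = 2) of the RET locus, 50.8% ± 4.99 of NGFR, 42.0% ± 0.421 of IGF1R and 14.6% ± 0.0567 of ALK. ERBB3 (8.35% ± 0.908) and PDGFRA (6.74% ± 1.59) followed, and their replicate values overlapped. NTRK3 had 1.87% ± 0.475, and no H3K4me1 island was called anywhere in the NTRK2 and KIT loci in either siCtrl library. RET was covered by a single island of 57.0 and 58.8 kb in the siCtrl replicates, which ran from 22.3 and 23.3 kb upstream of the start to 34.7 and 35.5 kb downstream. DMSO cells had the same leading 4 genes, with 51.8% ± 0.965 at RET, 43.6% ± 15.3 at NGFR, 31.3% ± 5.22 at IGF1R and 12.2% ± 0.378 at ALK. There the replicate values of NGFR overlapped those of both RET and IGF1R.

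**Figure D1:**
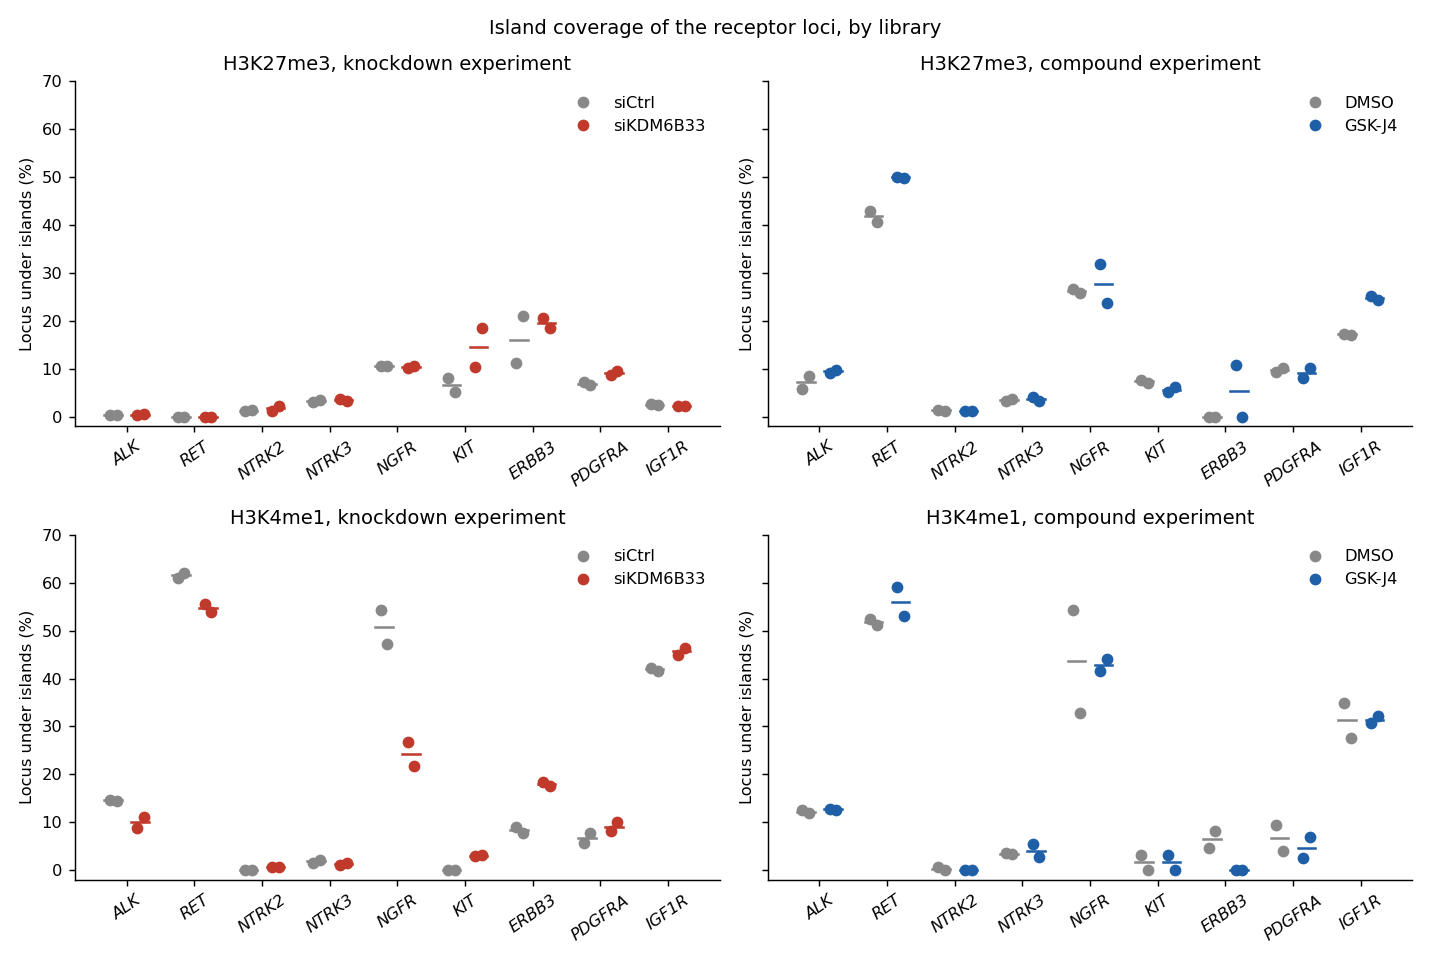
Share of each receptor locus under islands (%, y axis) for each gene (x axis), with H3K27me3 above and H3K4me1 below, the knockdown experiment on the left and the compound experiment on the right. Points are libraries and bars are group means; H3K4me1 coverage is highest at RET, NGFR and IGF1R, and the siKDM6B33 points of NGFR (26.7% and 21.7%) lie far below its siCtrl points (54.3% and 47.3%).

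H3K27me3 ranked the genes differently. In siCtrl it covered 16.1% ± 6.96 of ERBB3, 10.6% of NGFR in both replicates, 6.86% ± 0.477 of PDGFRA, 6.67% ± 2.05 of KIT and 3.24% ± 0.17 of NTRK3, and PDGFRA and KIT overlapped. IGF1R (2.51% ± 0.0842), NTRK2 (1.25% ± 0.0632) and ALK (0.280% ± 0.0567) had less, and RET had no island in any of the 4 H3K27me3 libraries of the knockdown experiment. In DMSO cells RET was instead the most covered gene at 41.7% ± 1.74, before NGFR at 26.2% ± 0.712 and IGF1R at 17.2% ± 0.126, and ERBB3 had no island. The experiments had separate controls and were not tested against each other.

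H3K4me1 was higher after knockdown at most coding starts with an island, and at 5 of the receptor starts. NTRK2, NTRK3 and KIT had no H3K4me1 within 1 kb of the start in either siCtrl library and full coverage of that window in both siKDM6B33 libraries. IGF1R was covered over 61.65% of the window in both siCtrl libraries and 100% in both siKDM6B33 libraries. PDGFRA had 22.95% and 30% in siCtrl against 40% and 100% in siKDM6B33. The start window was thus higher in 5 of 9 receptors and lower in 0, against 63.7% higher and 2.05% lower among the 12133 starts with an island in any of the 4 libraries. Of the other 4, RET and ERBB3 were fully covered in all 4 libraries, and ALK and NGFR lay between 77.45% and 100% with overlapping groups. Over all coding genes, 24.3% and 24.7% of starts carried an H3K4me1 island in the siCtrl libraries and 57.5% and 57.6% in the siKDM6B33 libraries.

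**Figure D2:**
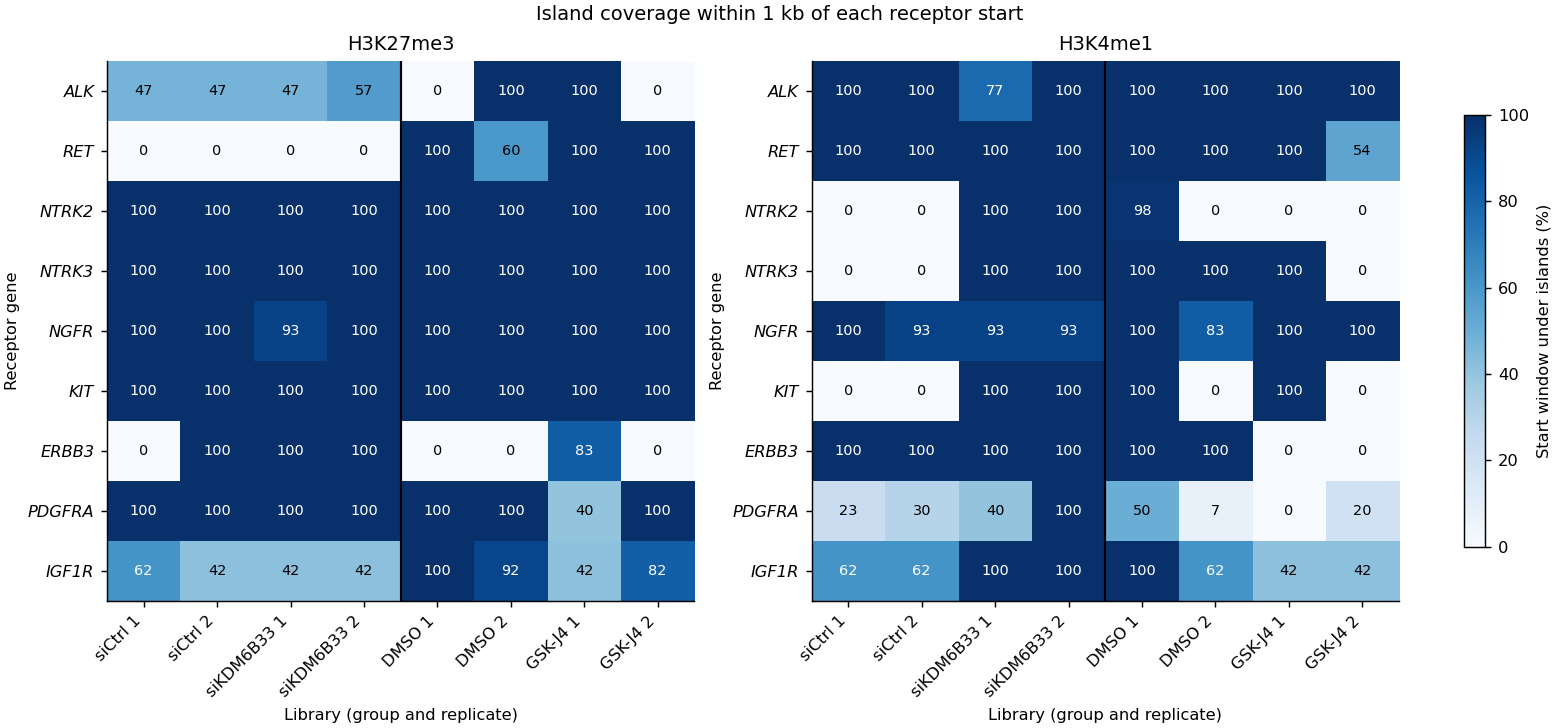
Share of the window within 1 kb of each receptor start under islands (%, colour and number in each cell), with genes as rows and the 8 libraries of each mark as columns; the black line divides the knockdown experiment from the compound experiment. NTRK2, NTRK3 and KIT read 100 in every H3K27me3 column, and for H3K4me1 they read 0 in siCtrl and 100 in siKDM6B33.

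The new H3K4me1 islands sat inside H3K27me3 domains of similar position. At NTRK2 the H3K4me1 island of both siKDM6B33 libraries was 3.2 kb wide, from 2.04 kb upstream to 1.16 kb downstream of the start. The H3K27me3 islands there were 5.4 and 5.8 kb wide in siCtrl and 5.6 and 5.8 kb in siKDM6B33. At NTRK3 the H3K4me1 islands were 4.8 and 5.0 kb wide, and at KIT 3.0 and 3.2 kb. Narrow peaks in these regions were compared by their largest summit pileup, the number of fragments over one base. At NTRK2 it was 3 and 2 fragments in siCtrl and 21 and 22 in siKDM6B33. At NTRK3 it was 3 fragments in siCtrl replicate 1 with no peak in replicate 2, against 12 and 10. At KIT it was 3 in both siCtrl libraries against 12 and 10. The siCtrl peaks at these starts, where there were any, thus rested on 3 fragments or fewer.

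**Figure D3:**
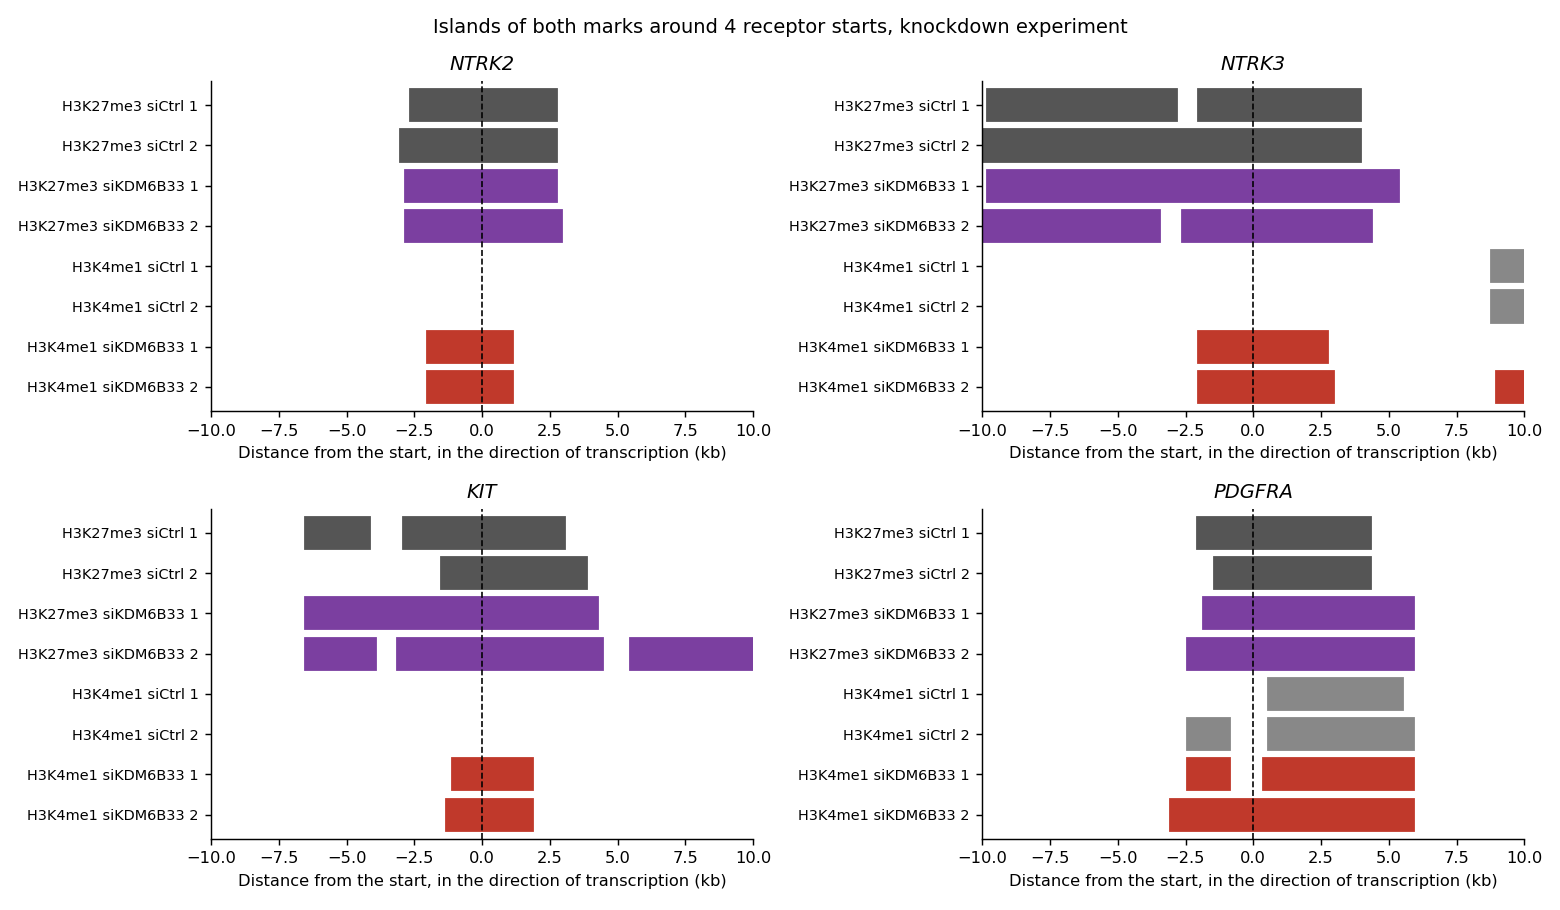
Islands of both marks within 10 kb of the starts of NTRK2, NTRK3, KIT and PDGFRA in the 8 libraries of the knockdown experiment; the x axis is the distance from the start in kb in the direction of transcription, each row is a library, dark grey and purple bars are H3K27me3 and light grey and red bars are H3K4me1. At NTRK2, NTRK3 and KIT the start lies under H3K27me3 in all 4 libraries and under H3K4me1 in the siKDM6B33 libraries only.

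Islands of the 4 libraries were then merged, and a merged region was called gained where both treated libraries and neither control library had an island in it, and lost in the opposite case. For H3K4me1 in the knockdown, 48 merged regions lay in the receptor loci, of which 5 were gained, 8 were lost and 27 were called in all 4 libraries. Among all 30427 merged regions of the genome, 24.6% were gained and 13.4% were lost. All 5 gained regions held the start of a coding gene. Among them were the starts of NTRK2, NTRK3 and KIT. The gained region at RET (chr10:43631801-43634800, 3.0 kb) lay downstream of RET over the start of CSGALNACT2. The gained region at ERBB3 (chr12:56497001-56502200, 5.2 kb) lay at the end of the gene over the start of PA2G4. None of the 8 lost regions held a coding start. Across the genome, 68.4% of 7478 gained regions and 2.57% of 4084 lost regions held one.

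The losses fell on 4 genes, inside or beyond their bodies. ALK lost 3 intronic regions of 1.2, 2.2 and 2.0 kb, in intron 27 (chr2:29419401-29420600) and intron 4 (chr2:29620401-29622600 and chr2:29623801-29625800). NTRK3 lost 5.2 kb around exon 20 (chr15:88417201-88422400) and 2.4 kb in intron 3 (chr15:88734401-88736800). NGFR lost 5.0 kb in intron 3 (chr17:47583001-47588000) and 3.6 kb downstream (chr17:47599001-47602600). IGF1R lost 4.8 kb in intron 5 (chr15:99446401-99451200). The largest summit pileup in the intron 27 region of ALK was 19 and 16 fragments in siCtrl and 4 and 8 in siKDM6B33. In the first intron 4 region it was 12 and 8 fragments in siCtrl, with no peak in siKDM6B33 replicate 1 and 4 fragments in replicate 2. In the NGFR intron 3 region siCtrl had 6 and 8 fragments, and neither siKDM6B33 library had a narrow peak. At IGF1R intron 5 the peaks did not separate the groups, with 7 fragments and no peak in siCtrl against 6 and 3. Nor did they at NTRK3 intron 3, with 5 and 5 against 6 and 4, or downstream of NGFR, with no peak and 9 fragments against no peak in either siKDM6B33 library. The lost regions numbered 9 at equal covered length. The second intron 4 region of ALK and the 3.6 kb region downstream of NGFR were no longer among them, while 1.8 kb in ALK intron 25, 1.8 kb in NTRK3 intron 3 and 2.2 kb downstream of NGFR were.

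Locus coverage of H3K4me1 moved in both directions after knockdown. It was lower in 3 receptors and higher in 5, against 14.2% lower and 66.9% higher among the 14463 loci with an island. NGFR had 54.3% and 47.3% in siCtrl and 26.7% and 21.7% in siKDM6B33, a difference of 26.6 ± 4.33 points (pooled SD). Of all loci, 0.415% had a lower difference than NGFR. At equal covered length 2.21% did, and the NGFR difference was -19.1 ± 5.40 points. RET had 61.0% and 62.1% against 55.5% and 53.9%, lower by 6.82 ± 0.984 points. ALK had 14.6% and 14.5% against 8.87% and 11.2%, lower by 4.54 ± 1.16 points. The ALK locus also held fewer narrow peaks, 115 and 92 in siCtrl and 68 and 72 in siKDM6B33. NGFR did not follow in peak number, with 14 and 13 against 15 and 16, and with narrow peak coverage in place of islands its difference was 0.0378 points.

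Of the 5 receptors with higher H3K4me1 coverage, 4 (NTRK2, KIT, PDGFRA and IGF1R) also had higher coverage of the start window. KIT went from 0% in both siCtrl libraries to 2.90% and 3.09%, and NTRK2 from 0% to 0.715% in both. IGF1R had 42.3% and 41.7% in siCtrl and 44.9% and 46.4% in siKDM6B33, and its narrow peaks numbered 82 and 76 against 96 and 106. PDGFRA had 5.62% and 7.87% against 8.09% and 10.1%, a difference of 2.36 points that was 1.24 without siCtrl replicate 1 and 1.35 without siKDM6B33 replicate 2. ERBB3 had 8.99% and 7.71% against 18.4% and 17.6%. Within the ERBB3 gene body alone the difference was -0.416 points, since the gained region over PA2G4 lay mostly in the flank. NTRK3, with a gained start and a pair of lost regions, had 1.53% and 2.21% against 1.15% and 1.58%, and its groups overlapped.

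**Figure D4:**
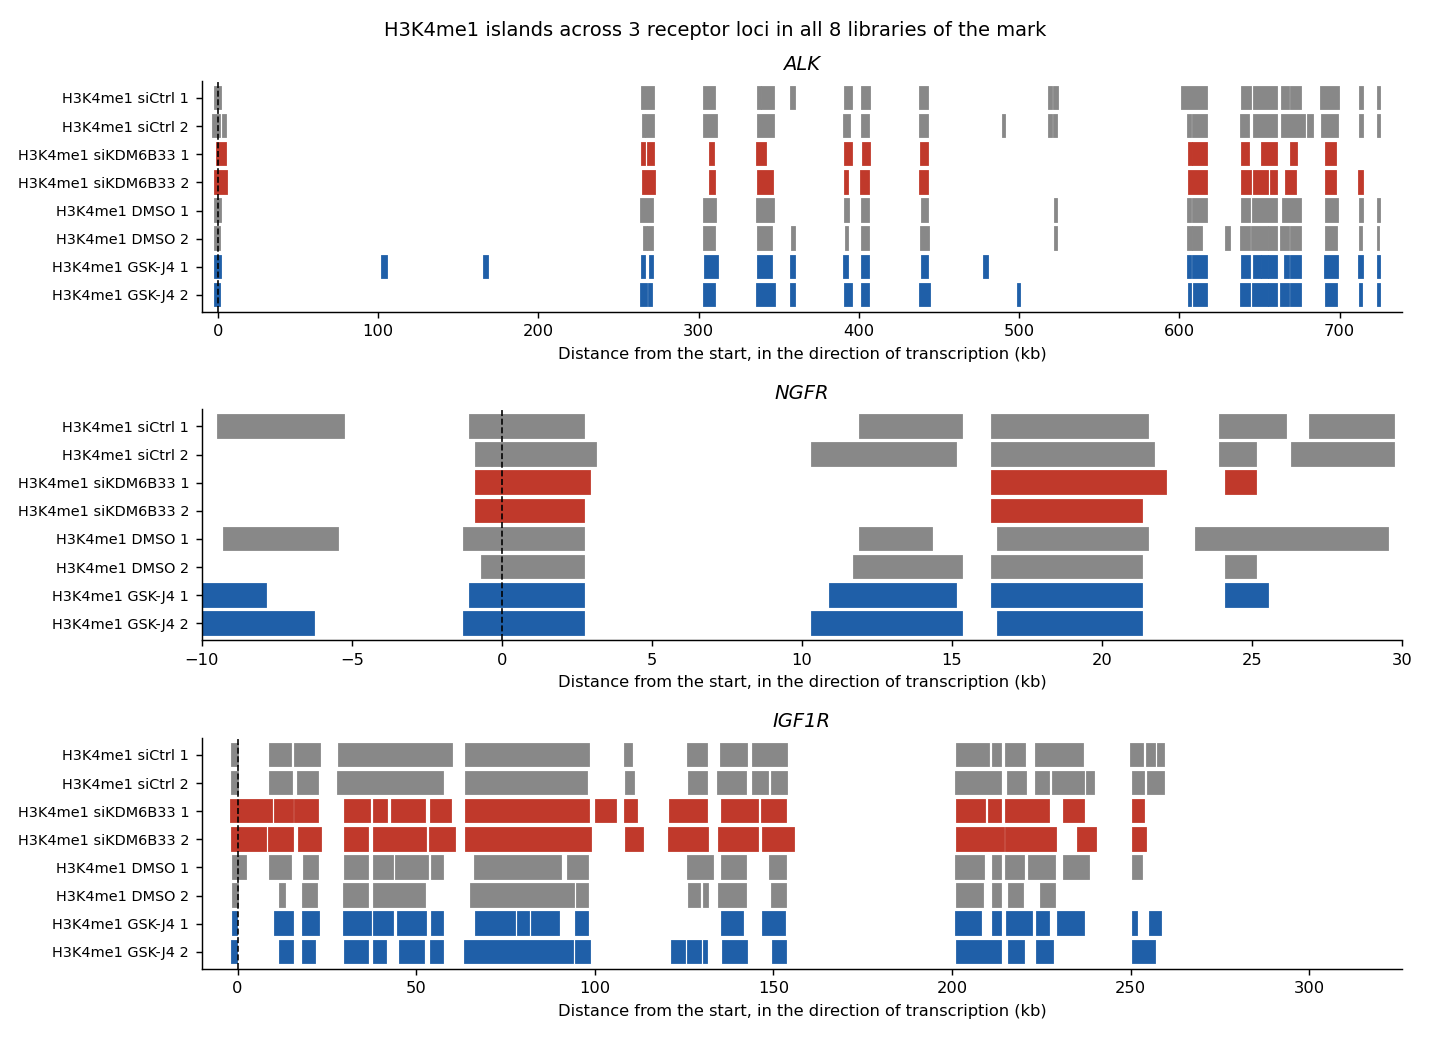
H3K4me1 islands across the ALK, NGFR and IGF1R loci in the 8 H3K4me1 libraries; the x axis is the distance from the start in kb in the direction of transcription and each row is a library (grey siCtrl and DMSO, red siKDM6B33, blue GSK-J4). The NGFR islands near 12 kb are present in 6 libraries and absent from both siKDM6B33 libraries.

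At equal covered length the H3K4me1 directions after knockdown were retained at 7 receptors. Coverage was lower at ALK, RET, NTRK3 and NGFR and higher at NTRK2, KIT, ERBB3 and PDGFRA, against 18.6% lower and 60.6% higher among all loci. NTRK3 joined the lower group (1.87% against 1.17% on average), and IGF1R was no longer separated. The full windows at the starts of NTRK2, NTRK3 and KIT remained at 0% against 100%.

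This pattern of H3K4me1 at the starts was not seen with GSK-J4, where the count of higher starts had little room. The start window was higher in 0 of 9 receptors and lower in 2, against 5.05% higher and 16% lower among 5500 starts. A DMSO library already had full coverage at all receptor starts but NTRK2 and PDGFRA, so those full starts could not be called higher. ERBB3 was fully covered in both DMSO libraries and not covered in either GSK-J4 library, and IGF1R had 100% and 61.65% against 41.65% in both. NTRK2 had 97.85% and 0% with DMSO and none with GSK-J4. NTRK3 had 100% in both DMSO libraries against 100% and 0%, and KIT had 100% and 0% in both groups. Replicates thus disagreed at these starts. When lists were cut to equal covered length, the NTRK3 start was fully covered in both DMSO libraries and not covered in either GSK-J4 library, NTRK2 was not covered in any of the 4, and the 2 starts called lower were NTRK3 and IGF1R, with ERBB3 no longer separated. Whether the knockdown and the compound differed in their effect was not tested.

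The ERBB3 start region (chr12:56472801-56476600, 3.8 kb) was the widest H3K4me1 region lost with GSK-J4, and it lay around the canonical start inside the gene. Its largest summit pileup was 6 and 7 fragments in DMSO, and neither GSK-J4 library had a peak in it. The locus went from 4.71% and 8.14% to 0% in both. At equal covered length the island was also missing from DMSO replicate 1, so the groups were no longer separated. The other lost region, 1.4 kb in ALK intron 4 (chr2:29620601-29622000), lay inside the first intron 4 region lost after knockdown, and its peaks rested on 4 fragments or fewer in all 4 libraries of the compound experiment. The gained regions were 4.6 kb in RET intron 6 (chr10:43603801-43608400), with no narrow peak in any of the 4 libraries, and 2.4 kb in NTRK3 intron 3 (chr15:88744401-88746800). These 2 gained and 2 lost regions were among 57 merged regions, against 7.76% gained and 5.20% lost of 23071 across the genome. None of the 4 kept its call at equal covered length. There the gained regions lay upstream of NGFR (5.0 kb) and in IGF1R intron 5 (7.8 kb), and the lost ones at the NTRK3 start (4.4 kb) and downstream of NGFR (6.4 kb).

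Locus coverage of H3K4me1 was higher with GSK-J4 at ALK and RET and lower at ERBB3, 2 and 1 of 9 receptors against 23.7% higher and 18.0% lower among 9713 loci. ALK had 12.5% and 11.9% in DMSO libraries against 12.8% and 12.6% in GSK-J4 libraries, a difference of 0.507 points that was 0.240 without DMSO replicate 2 and 0.775 without DMSO replicate 1. RET had 52.5% and 51.2% against 59.1% and 53.1%, a difference of 4.23 points that was 7.23 when GSK-J4 replicate 2 was left out and 1.23 when replicate 1 was. At equal covered length 0 receptors were higher and 1, NTRK3, was lower, against 20.7% and 21.6%, and the ALK and RET differences were -0.0401 and -1.23 points. The direction at ALK and RET thus changed with the covered length.

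H3K27me3 after knockdown did not separate the groups at any receptor start. The start window was higher in 0 and lower in 0 of the 8 receptors with an island, against 13.3% and 5.13% among 3980 starts. Windows at NTRK2, NTRK3, KIT and PDGFRA were fully covered in all 4 libraries, so this measure could not rise there. ERBB3 had 0% and 100% in siCtrl and 100% in both siKDM6B33 libraries, and its siCtrl replicates thus disagreed. No H3K27me3 region was gained or lost at the 15 merged regions of the receptor loci. Of all 17302 merged regions of the genome, 20.3% were gained and 1.72% lost. Of 10 merged regions at the receptors at equal covered length, 1, the ALK start, was lost.

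Locus coverage of H3K27me3 after knockdown was higher at KIT and PDGFRA and lower at IGF1R, 2 and 1 receptors against 36.0% higher and 11.7% lower among 6223 loci. KIT had 8.11% and 5.22% in siCtrl and 10.4% and 18.5% in siKDM6B33, a difference of 7.82 ± 4.31 points. It was 3.77 points without siKDM6B33 replicate 2 and 11.9 without replicate 1. The domain around the KIT start was 6.0 and 5.4 kb wide in siCtrl and 10.8 and 7.6 kb in siKDM6B33. In siCtrl replicate 1 a separate island lay at -6.52 to -4.12 kb from the start. The single island of siKDM6B33 replicate 1 began at the same point and took in that stretch. PDGFRA had 7.19% and 6.52% against 8.77% and 9.44%. IGF1R had 2.57% and 2.45% against 2.21% and 2.15%, a difference of 0.327 points. With narrow peak coverage in place of islands all 3 turned direction, to -0.0758 points at KIT, -0.00169 at PDGFRA and 0.0740 at IGF1R. At equal covered length PDGFRA remained higher and IGF1R lower, KIT was no longer separated and ALK was lower, with 1 higher and 2 lower receptors against 15.5% and 36.5% of loci. The lists of the knockdown experiment thus gave opposite majorities across the genome before and after the cut.

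H3K27me3 with GSK-J4 was higher at RET, IGF1R and ALK and lower at NTRK2 and KIT. These 3 and 2 receptors stood against 14.4% higher and 10.9% lower among 8343 loci. RET had 43.0% and 40.5% in DMSO libraries against 50.1% and 49.8% in GSK-J4 libraries, higher by 8.19 ± 1.24 points. Of all loci, 9.06% had a higher difference than RET. IGF1R had 17.3% and 17.1% against 25.1% and 24.4%, higher by 7.59 ± 0.368 points, and 10.2% of loci had a higher difference. ALK had 5.80% and 8.47% against 9.19% and 9.78%, higher by 2.35 points, by 1.01 without DMSO replicate 1 and by 3.69 without DMSO replicate 2. KIT had 7.73% and 6.96% against 5.02% and 6.18%, lower by 1.74 points, and NTRK2 had 1.34% and 1.25% against 1.12% in both.

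These H3K27me3 differences did not rest on the GSK-J4 replicate that stood apart. Without it the difference was 8.05 points at RET, 7.23 at IGF1R, 2.64 at ALK, -1.16 at KIT and -0.179 at NTRK2. At equal covered length the same 5 receptors were separated in the same directions, against 8.25% higher and 15.3% lower among all loci. There RET remained higher by 8.19 points and ALK by 2.75, and IGF1R was higher by 2.95 ± 1.67 points. With narrow peak coverage in place of islands both lower calls turned direction, to 0.20 points at KIT and 0.00369 at NTRK2, and NTRK2 also turned in the gene body alone (0.0234).

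The IGF1R gain lay in its long first introns. Of 38 merged H3K27me3 regions at the receptors 3 were gained and 0 lost with GSK-J4, against 5.86% gained and 0.256% lost of 14471 across the genome. All 3 were there, 4.8 kb in intron 1 (chr15:99210001-99214800) and 4.0 and 11.2 kb in intron 2 (chr15:99341601-99345600 and chr15:99403201-99414400). They were also gained in number without the replicate that stood apart, 3 in all, but at equal covered length 0 were gained. Narrow peaks in them reached 6 fragments at most and did not separate the groups. At the IGF1R start itself the H3K27me3 window was lower, 100% and 91.65% with DMSO against 41.65% and 81.65%, which made it the 1 receptor start called lower. None was called higher, against 4.47% lower and 4.45% higher among 4606 starts. NTRK2, NTRK3, NGFR and KIT starts were fully covered in all 4 libraries. A DMSO library was also fully covered at ALK, RET, PDGFRA and IGF1R, so only ERBB3 could have been called higher.

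**Figure D5:**
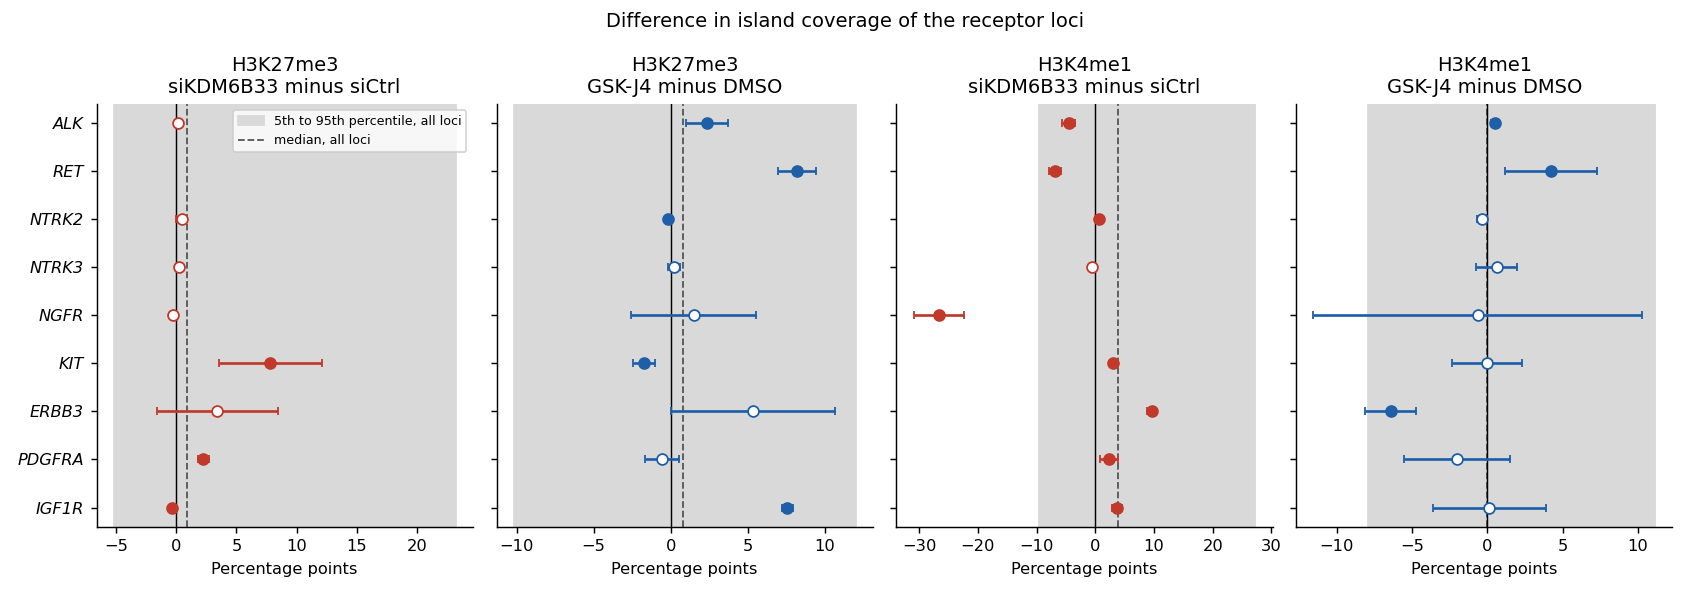
Difference in island coverage of each receptor locus (percentage points, x axis; treated minus control mean, bars are the pooled SD) for each mark and experiment. Filled points are groups that do not overlap, the grey band spans the 5th to 95th percentile and the dashed line marks the median of all loci with an island; NGFR after knockdown, 26.6 points lower for H3K4me1, lies outside the band, and RET has no point where it had no H3K27me3 island.

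Median differences in percentage points depend on the length of the loci. For H3K4me1 after knockdown the median was 0.715 points over the 9 receptors, which is the value of NTRK2, against 3.95 over all loci. It was 0.33 against 0.925 points for H3K27me3 after knockdown (8 receptors), 1.51 against 0.797 for H3K27me3 with GSK-J4, and 0 against 0 for H3K4me1 with GSK-J4.

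Overlap of the 2 marks was then measured in islands called in both replicates. In siCtrl cells 4 of the 7 receptor starts with H3K27me3 (ALK, NGFR, PDGFRA and IGF1R) carried both marks, and in siKDM6B33 cells 8 of 8 did, every receptor except RET. Among all coding starts with H3K27me3, 21.3% also carried H3K4me1 in siCtrl and 54.5% in siKDM6B33. With DMSO 5 of the 7 receptor starts with H3K27me3 carried both marks and with GSK-J4 3 of 7 did (RET, NGFR and IGF1R), while the share of all H3K27me3 starts was 62.7% and 61.3%. At NTRK2, NTRK3 and KIT the siKDM6B33 overlap measured 3.2, 4.8 and 3.0 kb, which was all of their H3K4me1.

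The length shared by the marks differed between the experiments. In siCtrl 10.2 kb of the 47.6 kb of H3K27me3 at the receptors (21.4%) lay under H3K4me1, and in siKDM6B33 27.4 of 58.4 kb (46.9%). Across the genome the shares were 9.17% and 12%. In the compound experiment the receptor shares were 75.3% with DMSO and 76.4% with GSK-J4, against 53.5% and 62.5% across the genome. At RET all 29.7 kb of H3K27me3 lay under H3K4me1 with DMSO and 91.1% of 33.7 kb with GSK-J4. At IGF1R 83.1% of 47.4 kb and 85.5% of 58.2 kb did, and at ALK 93.3% of 36.0 kb and 94.8% of 50.4 kb. The H3K27me3 of ALK, RET and IGF1R in this experiment thus lay mostly over H3K4me1 islands. At NTRK2 and KIT none did in islands called in both replicates. Single libraries did have an H3K4me1 island there, DMSO replicate 1 at both genes and GSK-J4 replicate 1 at KIT.

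Narrow peaks gave a count per locus that did not always follow the islands. For H3K27me3 after knockdown their number was higher in 3 receptors and lower in 1, against 15.0% higher and 5.63% lower among the 15464 loci with a peak. NTRK2 had 8 and 7 peaks in siCtrl and 16 in both siKDM6B33 libraries, and it was also separated with −log10 q of at least 2 or 5 and as a share of each library's peaks. IGF1R had 5 and 4 against 14 and 10, so its peak number was higher where its island coverage was lower, and its groups were no longer separated when −log10 q had to reach 5. ALK had 1 and 4 against 7 and 6, and RET 3 and 1 against 0 in both. Nor were those of ALK under that limit, and those of RET were not separated even at a limit of 2. All peaks of a library numbered 32367 and 33368 in siCtrl and 44262 and 44475 in siKDM6B33. As shares of these totals all 4 receptors stayed separated in the same directions.

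With GSK-J4 the number of H3K27me3 peaks was higher in 3 receptors (RET, NTRK3 and KIT) and lower in 0, against 21.0% and 2.9% among 16340 loci. RET had 5 and 2 peaks in DMSO libraries and 10 and 8 in GSK-J4 libraries, and NTRK3 had 5 and 6 against 9 and 9. As a share of each library's peaks the groups of RET and NTRK3 overlapped. Those of KIT, with 2 and 2 peaks against 7 and 4, stayed separated. For H3K4me1 after knockdown 6 receptors had more peaks and 2, ALK and NTRK3, had fewer, against 45% and 14.0% among 16759 loci. NTRK3 had 25 and 20 peaks in siCtrl and 10 in both siKDM6B33 libraries, and with −log10 q of at least 5 the mean difference was 0. With GSK-J4 H3K4me1 peaks were more numerous at ALK and NTRK3 and fewer at RET and NGFR, 2 and 2 receptors against 13.8% and 8.74% among 16897 loci. NGFR had 8 and 6 peaks in DMSO and 3 and 4 in GSK-J4, and RET had 20 and 19 against 18 and 15.

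The strongest narrow peak shared by replicates kept its position across groups at IGF1R for H3K27me3 but not at NGFR and ALK for H3K4me1. At IGF1R the strongest H3K27me3 peak shared by replicates lay at -0.389 kb from the start in siCtrl and between -0.386 and -0.382 kb in the other 3 groups, at 15.1 to 18.6 times the background with DMSO and 12.7 to 13.1 times with GSK-J4. At NGFR it lay in intron 1, 1.35 kb downstream of the start in siCtrl, at 17.4 and 15.5 times the background. For H3K4me1, NGFR had its strongest shared peak 20.1 kb downstream of the start in siCtrl (14.9 and 12.3 times) and at the intron 1 position in siKDM6B33 (18.3 and 16 times). At ALK the strongest H3K4me1 peak lay in intron 12 in siCtrl (19.4 and 19.9 times, 62 and 66 fragments), and in intron 3, 271 kb downstream of the start, in siKDM6B33 (14.7 and 15.6 times). With DMSO the strongest ALK peak also lay in intron 3 (11.6 and 14.2 times), and with GSK-J4 in intron 16 (10.9 and 11.1 times). These folds are relative to each library's own background.

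The other genes of these pathways were read from 3 lists, all of whose genes were found. Of 39 other receptor tyrosine kinases, 32 had an H3K4me1 island in the knockdown experiment, of which 13 were higher and 10 lower, beside the 66.9% higher and 14.2% lower of all loci. FGFR3, a fibroblast growth factor receptor, had 41.0% and 52.2% in siCtrl and 12.9% and 21.4% in siKDM6B33. Of 29 ligands and co-receptors 27 had an island, with 14 higher and 4 lower. Of 32 adaptors and feedback genes 30 had one, with 25 higher and 2 lower. The feedback inhibitor SPRY2 had 18.3% and 15.1% against 48.5% and 40.6%, and DUSP6, a phosphatase of ERK, had 13.5% and 25.3% against 39.6% and 52.2%. The median differences of the 3 lists were 0.373, 1.27 and 3.53 points against 3.95 for all loci.

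H3K27me3 after knockdown was higher in 12 and lower in 1 of the 22 other receptor kinases with an island, higher in 7 and lower in 2 of 24 ligands and co-receptors, and higher in 2 and lower in 4 of 11 adaptors and feedback genes. Of all loci 36.0% were higher and 11.7% lower, which turned to 15.5% and 36.5% at equal covered length. NTF3, which encodes the NTRK3 ligand NT-3, had 29.8% and 28.9% in siCtrl and 73.1% and 71.6% in siKDM6B33, and was also higher at equal covered length. The RET co-receptor gene GFRA3 had 48.1% and 24.9% against 14.5% and 24.0%. SHC2, an adaptor of tyrosine kinases, had 19.9% and 14.9% against 39.1% and 36.0%, and was not separated at equal covered length. The list medians were 1.68, 1.58 and -0.548 points against 0.925 for all loci.

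With GSK-J4, H3K27me3 was higher in 4 and lower in 6 of 26 other receptor kinases, 4 and 5 of 25 ligands and co-receptors, and 2 and 2 of 18 adaptors and feedback genes, beside 14.4% and 10.9% of all loci. The list medians were -0.446, -0.389 and 0.633 points against 0.797 for all loci. MDK, which encodes the growth factor midkine, had 26.9% and 28.6% in DMSO libraries against 36.4% and 59.8% in GSK-J4 libraries. IGF2, a ligand of IGF1R, had 45.9% and 48.3% against 75.5% and 56.5%. The ephrin receptor gene EPHB3 had 61.0% and 77.3% against 47.7% and 58.1%. All 3 remained separated in the same direction at equal covered length.

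For H3K4me1 with GSK-J4 the counts were 5 higher and 4 lower of 26 other receptor kinases, 7 and 6 of 26 ligands and co-receptors, and 5 and 7 of 25 adaptors and feedback genes, beside 23.7% and 18.0% of all loci. The list medians were 0.417, -0.000383 and 0.161 points against 0 for all loci. The GDNF family co-receptor gene GFRA4 had 18.0% and 11.4% in DMSO libraries against 38.7% and 28.0% in GSK-J4 libraries. The feedback inhibitor SPRY4 had 51.1% and 54.4% against 35.5% and 42.2%, and SPRY2 went from 8.75% and 19.1% to 0% in both. Of these, SPRY4 remained separated at equal covered length and the other 2 did not.

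For 7 receptors with a mean coverage of at least 5% in 1 mark, the coding gene of most similar coverage over all 16 libraries was found by the mean absolute difference. ALK was nearest to WNK2 (0.988 points), KIT to TMEM233 (1.34), PDGFRA to ERICH1 (1.72), IGF1R to BAX (2.62), RET to INF2 (2.64), ERBB3 to PRDM8 (2.95) and NGFR to OAF (4.97). NGFR thus had the least similar neighbour of the 7. NTRK2 and NTRK3 were below the 5% limit in both marks.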

How the data were processed

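CUT&Tag libraries of H3K27me3 and H3K4me1 in BE2C cells were grouped by treatment from the sample titles, with 2 libraries per group. Per the submitters' processing notes, reads were trimmed with Trim Galore 0.4.4, aligned to hg19 with BWA 0.7.12 and cleared of duplicates with Picard 1.65. The authors called broad islands with SICER 1.1 (200-bp windows) and narrow peaks with MACS2 (its version differs between the processing notes and the study's methods), library by library and without pooling. The deposited island lists give a score per island, used here only to rank islands when lists were cut to equal covered length. The deposited narrow peak lists give fold enrichment (a ratio to the library's background), −log10 p and −log10 q. No reads per region and no spike-in factors were used, so coverage is a share of bases under called islands and depends on depth.

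Gene models were GENCODE on GRCh37, the build of the lists, with the canonical transcript giving the start. Coverage was the share of a locus (gene body and 10 kb on each side) or of a start window (1 kb on each side) under islands. The fold and −log10 p of a narrow peak were solved for its whole-number summit pileup, which succeeded for at least 99.68% of peaks. Groups were compared with the two-sided exact permutation test, whose smallest p is 0.33 for 2 libraries against 2. Shares of all loci with non-overlapping groups are given as background. The code for the calls and the pileup solution was checked on simulated lists with large planted changes. Recovery of such changes does not show how often unchanged loci are called. Python 3.11.15, NumPy 2.4.6, pandas 2.3.3, pysam 0.24.0 and matplotlib 3.10.9 were used.

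The genes named are the 9 receptors, KDM6B, 3 sympathetic markers (another gene of the rule is not reported here), the nearest gene in coverage to each receptor, and, from 3 pathway lists, the 3 genes per mark and experiment with the largest differences of at least 10 points among those whose groups did not overlap. Neighbouring genes at gained regions were named after their values were seen. The receptors, lists and tests were chosen with earlier results of these data known. Replicates with the same number did not deviate together (correlations of replicate differences between -0.0578 and 0.0819). Alternatives covered the locus limits, island width and joining, equal covered length, narrow peaks in place of islands, stricter q values, each library left out and pairing by replicate number.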

Additional observations from a re-analysis of the deposited data

How the results depend on the processing

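Depth and the number of libraries set the limits of these results. Coverage counts bases under called islands, so a deeper library can have more of them, and peaks of 3 fragments or fewer made up 1.23% to 47.8% of those in the receptor loci. With 2 libraries per group the exact permutation test could not pass a threshold of 0.05, and values with a library left out were not tested.

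For H3K4me1 after knockdown, receptors with higher and lower coverage numbered 4 and 4 in the gene body only and at equal covered length, 4 and 3 with islands within 2 kb joined, and 5 and 2 with narrow peak coverage. Receptors with higher coverage numbered 5 and receptors with lower coverage 3 to 4 with each library left out, starts with higher coverage remained at 5, and gained and lost regions ranged from 5 to 6 and from 9 to 11. The count of starts with lower coverage ranged from 0 to 1, being 1 without siCtrl replicate 2 and without siKDM6B33 replicate 2.

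For H3K27me3 after knockdown, receptors with higher coverage numbered 2, but 4 in the gene body only, 1 at equal covered length and 4 with narrow peak coverage, and those with lower coverage numbered 1, but 0, 2 and 3 under these settings. With each library left out they ranged from 3 to 5 (5 without siCtrl replicate 2, 4 without siKDM6B33 replicate 1) and from 1 to 2 (2 without siCtrl replicate 1 or siKDM6B33 replicate 2). Starts ranged from 0 to 1 in both directions (higher without siCtrl replicate 2 or siKDM6B33 replicate 1, lower without siCtrl replicate 2 or siKDM6B33 replicate 2), and those with lower coverage numbered 2 with a window of 2.5 kb on each side and 1 at equal covered length. Gained regions ranged from 0 to 5 (5 without siKDM6B33 replicate 1, 1 without siCtrl replicate 2), and 1 region was lost at equal covered length, the ALK start.

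With GSK-J4, receptors with higher H3K27me3 coverage ranged from 3 to 6 (6 without GSK-J4 replicate 2) and those with lower coverage numbered 1 in the gene body only and 0 with narrow peak coverage. Starts with higher coverage ranged from 0 to 1 (1 without DMSO replicate 1 or GSK-J4 replicate 2), and those with lower coverage from 1 to 2 (2 without GSK-J4 replicate 2) and 2 with the wider window. Gained regions ranged from 3 to 18, being 5 when DMSO replicate 2 was left out and 18 when GSK-J4 replicate 2 was, and were 0 at equal covered length. For H3K4me1, receptors with higher coverage ranged from 2 to 4 (4 without DMSO replicate 1), with 0 at equal covered length and 1 with narrow peak coverage. Those with lower coverage ranged from 1 to 5 (5 without DMSO replicate 2, 2 without either GSK-J4 library). Starts ranged from 0 to 1 higher (1 without DMSO replicate 1) and from 2 to 4 lower (4 without DMSO replicate 2 or GSK-J4 replicate 1). Gained regions ranged from 3 to 8 (8 without GSK-J4 replicate 2, 5 without DMSO replicate 1, 4 without GSK-J4 replicate 1) and lost regions from 3 to 4 (4 without either GSK-J4 library).

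Sign changes of differences that were not called higher or lower in the main setting are not counted here. Single differences called there turned direction in 12 cases, and the cause was not tested. With narrow peak coverage in place of islands they became -0.0758 points at KIT, -0.00169 at PDGFRA and 0.0740 at IGF1R for H3K27me3 after knockdown, 0.00369 at NTRK2 and 0.20 at KIT for H3K27me3 with GSK-J4, 0.0378 at NGFR for H3K4me1 after knockdown, and -0.385 at RET for H3K4me1 with GSK-J4. In the gene body only they became 0.0234 at NTRK2 for H3K27me3 with GSK-J4 and -0.416 at ERBB3 for H3K4me1 after knockdown. At equal covered length the called H3K4me1 differences with GSK-J4 became -0.0401 at ALK and -1.23 at RET. Differences not called at first also changed sign there. For H3K4me1 with GSK-J4 these became -0.959 at NTRK3, 2.38 at NGFR and -0.298 at IGF1R. For H3K27me3 they became -0.280 at ALK and -10.1 at ERBB3 after knockdown, and -3.53 at NGFR and -0.00264 at NTRK3 with GSK-J4. With −log10 q of at least 5, IGF1R had -0.5 H3K27me3 narrow peaks on average after knockdown.

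Pairing libraries of the same replicate number, as a replicate block, gave 3 receptors with higher and 1 with lower H3K27me3 coverage after knockdown, and 5 and 4 for H3K4me1. With GSK-J4 it gave 3 and 2 for H3K27me3, and 2 and 1 for H3K4me1. The numbers did not pair the libraries (correlations of -0.000919, 0.0819, 0.0123 and -0.0578), and the smallest p with 2 pairs is 0.5. Counts of starts under the pairing equalled the main counts. Leaving out libraries for starts and regions, and equal covered length for starts, were chosen after seeing the data.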
